A study of Mus musculus with 12 samples.

Results

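Glutathione transferases, glutathione peroxidases and peroxiredoxins are 3 families of enzymes that remove electrophiles and peroxides, and their transcripts were followed in whole retina of diabetic and control mice. Members were chosen by name alone, as every line of the table whose symbol in the platform annotation is a numbered Gst of the alpha, kappa, mu, omega, pi, theta or zeta class, a numbered Gpx or a numbered Prdx. This gave 32 of 24570 named genes: 20 glutathione transferases, 8 glutathione peroxidases and 4 peroxiredoxins. Prdx5 and Prdx6 also have lines, but they were named only through RefSeq, so their values are given beside the 4 peroxiredoxins and they enter no count. Gsta1 and Gstp2 were not analysed here.

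The diabetic group held 6 male C57Bl6/J mice given streptozotocin, a toxin of insulin-producing cells, at 160 mg/kg into the peritoneum at an age of 8 weeks, and hyperglycaemia above 15 mM was required 7 days later. The control group held 6 normoglycaemic mice of the same strain without streptozotocin. The age of 8 weeks and a body weight of 24 to 26 g are listed for both groups. Retinas of both were taken at 6 weeks, with 1 array per animal, and the labels leave unsettled what this counts from. It cannot be weeks of age for mice injected at 8 weeks of age, as stated, and the duration of diabetes is not settled. Streptozotocin itself and the diabetes it causes cannot be told apart in this design, nor can any cohort behind the animals' label numbers, whose ranges do not overlap between the groups. Values are log2 expression values from a robust multi-array average, with the same distribution on every array and a median of 5.73.

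As background, glutathione transferases join glutathione, a small thiol peptide, to reactive and often toxic molecules, among them aldehydes from oxidised membrane lipids. Most glutathione peroxidases use glutathione to reduce hydrogen peroxide and lipid peroxides, several of them with selenocysteine in the active site. Peroxiredoxins reduce peroxides through a reactive cysteine that is restored mainly by thioredoxin. The retina, with its high oxygen use and photoreceptor membranes rich in polyunsaturated lipids, depends on all 3 families.

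The tissue label was borne out by its defining markers. All 9 rod and 9 Mueller glia markers lay above the array median, with list means of 12.4 to 12.5 and 10.5 to 10.8 over single arrays. Of 8 ganglion cell markers, 7 lay above it. The mean of 8 cone markers ran from 9.14 to 9.27 in controls and from 9.01 to 9.18 in diabetic retinas. This difference of group means (-0.095) was the largest among the retinal cell lists, and its cause was not tested. Markers of adjoining tissue varied between animals. The mean of 18 lens markers ran from 5.72 to 6.19 in controls and from 5.62 to 6.97 in diabetic retinas. That of 11 pigment epithelium markers ran from 6.54 to 7.26 in controls and from 6.50 to 7.69 in diabetic retinas. Diabetic 6 was highest for both lists. Fits with these marker lists as covariates are given below for some genes, but whether carryover of these tissues set the values was not tested. The 5 red blood cell markers that were measured, 2 haemoglobin beta genes among them, all lay below the array median (list means 5.25 to 5.29), so this list gives no usable measure of blood in the samples.

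None of the 32 members passed the limma test over all genes (adjusted p under 0.05), against 3.24% of all genes. At an unadjusted p under 0.05 there were 6 members (18.8%), 3 higher and 3 lower in diabetic retinas, beside 21.0% of all genes (9.76% higher and 11.3% lower), so the share of members was close to the background. At the wider threshold of 0.1 on the adjusted p there were 2 members, beside 8.01% of all genes. The smallest adjusted p-values were those of the peroxiredoxin gene Prdx2 (-0.35 ± 0.09, log2 change with SE, n = 6 per group; adjusted p = 0.0524) and the transferase gene Gstp1 (-0.17 ± 0.05; adjusted p = 0.0815). Prdx2 passed in 5 of 21 alternative fits, among them a fit with a mean-variance trend (adjusted p = 0.0272), a fit with array weights (adjusted p = 0.0475) and a fit restricted to genes at or above the array median (adjusted p = 0.0231), in which 6.78% of genes passed.

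Among the 16 members at or above the array median, the 95% interval of the change lay inside a 1.2-fold change in either direction for 10. It reached beyond for Gpx3, Gstm7, Gsto1, Gstp1, Prdx1 and Prdx2. The other 16 lines sit near the floor of the array, where a log2 difference understates a change in transcript, so for them a narrow interval does not bound the change in RNA. Some of the 10 lie only slightly above the array median, such as Gpx4 (mean 5.81) and Gstm1 (mean 5.95). The same limit may hold for these. In whole tissue, fewer cells of a type and less RNA per cell cannot be told apart.

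**Figure D1:**
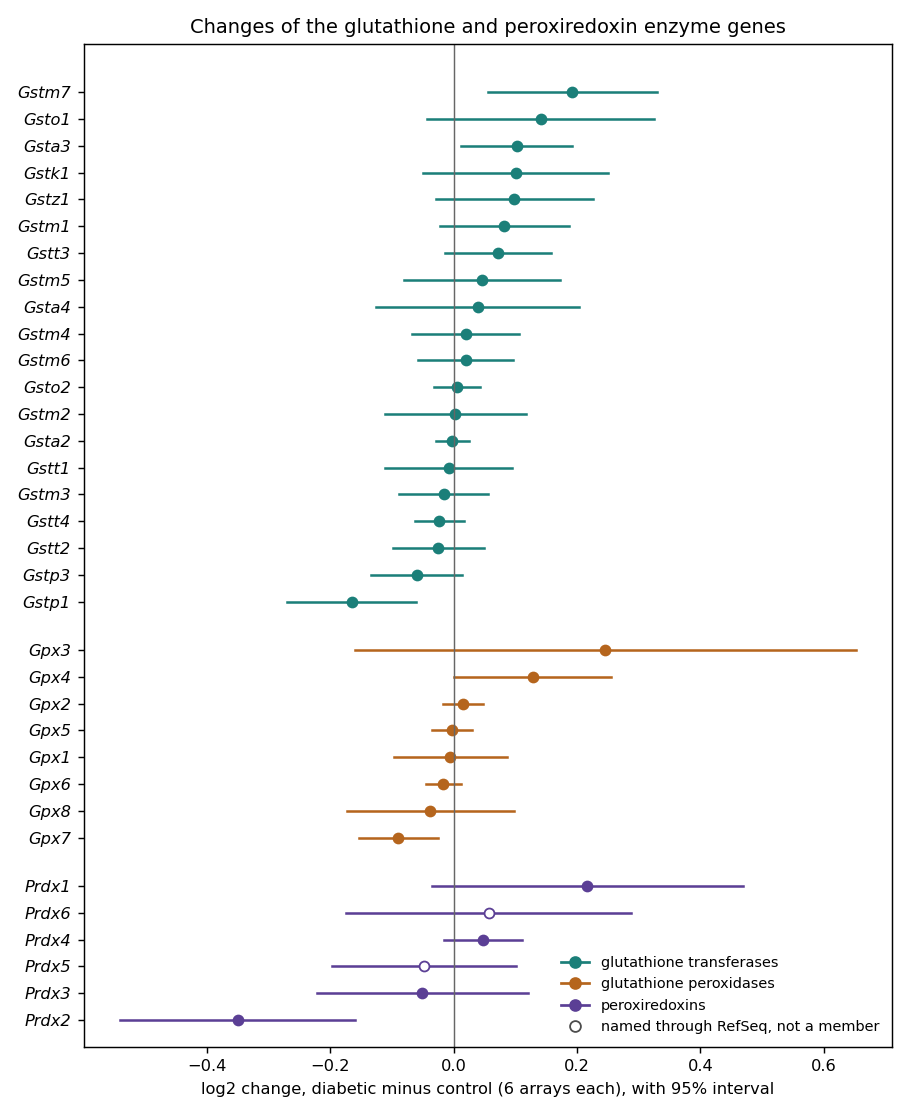
Log2 change of each gene, diabetic minus control, with its 95% interval from limma (6 arrays per group), grouped by family. Filled points are the 32 members, open points the 2 peroxiredoxin lines named through RefSeq. Prdx2 lies lowest at -0.35, and Gpx3 has the widest interval, from -0.16 to 0.65.

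Peroxiredoxins held the largest difference. Prdx2, a cytosolic peroxiredoxin abundant in neurons and red blood cells, ran from 9.23 to 9.66 in controls (median 9.53) and from 8.86 to 9.23 in diabetic retinas (median 9.17). The groups did not overlap, but only just: the lowest control (9.2305) and the highest diabetic array (9.2285) nearly met. Such separation was seen for 1 of the 32 members and for 2.84% of all genes. The level in diabetic retinas was 1.27-fold lower, with a 95% interval of the log2 change from -0.54 to -0.16. Diabetic 2, at 8.86, stood below the other diabetic arrays (9.12 to 9.23), and without it the change was -0.30 (adjusted p = 0.0657). The 2 lowest control values were those of control 4 and control 5. Without either of these the gene passed, at -0.40 (adjusted p = 0.0305) without control 4 and at -0.39 (adjusted p = 0.0411) without control 5. Leaving out a low control widens this difference by construction. Only these 2 of the 12 limma fits without 1 array passed, with adjusted p from 0.0305 to 0.0988 over the 12. With lens markers as a covariate the change was -0.33 (adjusted p = 0.0904), and with pigment epithelium markers -0.35 (adjusted p = 0.0528).

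Prdx1, the other main cytosolic peroxiredoxin and a gene induced by oxidative stress, had the opposite sign. It ran from 7.65 to 7.98 in controls (median 7.82) and from 7.51 to 8.32 in diabetic retinas (median 8.09). Diabetic 6 held the lowest value of all arrays, and the other diabetic arrays lay above the control median. The change was 0.22 ± 0.12 (1.16-fold, 95% interval -0.036 to 0.47; adjusted p = 0.311). It was 0.32 without diabetic 6 (adjusted p = 0.0540), the array with the highest lens marker mean, and 0.30 with lens markers as a covariate (adjusted p = 0.0758).

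Prdx4, the peroxiredoxin of the endoplasmic reticulum, was dim, from 5.43 to 5.61 in controls (median 5.54) and from 5.54 to 5.64 in diabetic retinas (median 5.56). Its groups overlapped, and the change was 0.048 ± 0.029 (adjusted p = 0.374), or 0.029 without control 2 (adjusted p = 0.597). Prdx3, the mitochondrial peroxiredoxin, differed by -0.051 ± 0.078 (95% interval -0.22 to 0.12; adjusted p = 0.760). Of the lines named through RefSeq, Prdx5, found in mitochondria and peroxisomes, had the smaller interval (-0.048, 95% interval -0.20 to 0.10). Prdx6, which reduces phospholipid peroxides with a single catalytic cysteine, differed by 0.057 (95% interval -0.17 to 0.29). The 4 member changes had a median of -0.0014, with 2 above and 2 below 0, beside a median of -0.0018 over all genes.

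**Figure D2:**
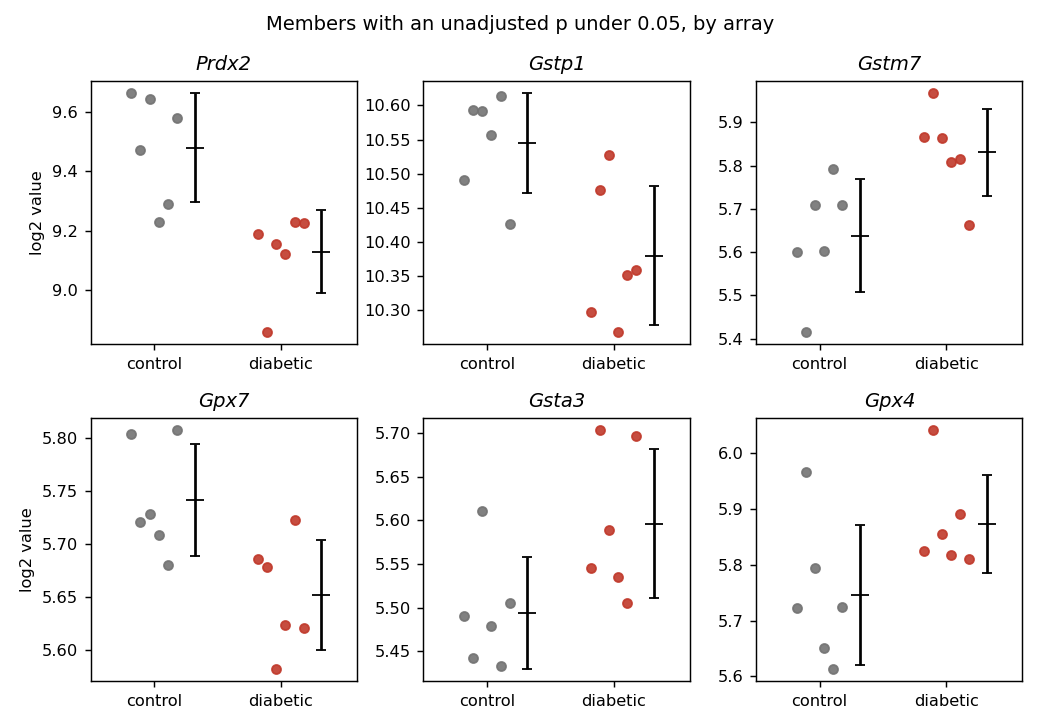
Log2 value of each array (points) for the 6 members with an unadjusted p under 0.05, with the mean and SD of each group beside the points (6 arrays each, 1 animal per array). Each panel has its own vertical axis, which does not start at 0. Only for Prdx2 do the groups not overlap.

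Glutathione transferases, the largest family, showed small values in both directions. Of 20 members, 13 lay above 0 and 7 below, with a median of 0.020, 0 past the limma test and 3 at an unadjusted p under 0.05. The share above 0 was 65.0%, beside 48.1% of all genes. Among the 9 members at or above the array median, the median change was 0.082, with 7 above 0, beside 6185 of 12382 genes above 0 in that range. No test was made of these medians. The median over all 20 was 0.0091 without control 2, 0.0084 without diabetic 6 and 0.036 without control 4.

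Gstp1, the pi-class enzyme, was the member with the highest mean signal. It ran from 10.43 to 10.61 in controls (median 10.57) and from 10.27 to 10.53 in diabetic retinas (median 10.36). Of the 6 diabetic arrays, 4 lay below all controls, while diabetic 2 and diabetic 3 lay within the control range. The level was 1.12-fold lower (95% interval of the log2 change -0.27 to -0.061; adjusted p = 0.0815), and it stayed short of the threshold when any single array was left out (adjusted p from 0.0550 to 0.149). Its neighbour on the chromosome, Gstp2, is a close copy, so the probes behind the Gstp1 line may not tell the copies apart. The line of the other measured pi-class gene, Gstp3, was dim and differed by -0.060 ± 0.034 (adjusted p = 0.342).

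Gstm7 had the largest positive value of the family. It ran from 5.42 to 5.79 in controls (median 5.66) and from 5.66 to 5.97 in diabetic retinas (median 5.84), with 5 of the 6 diabetic arrays above all controls and diabetic 6 within the control range. The change was 0.19 ± 0.06 (1.14-fold; adjusted p = 0.110), at a level next to the array median of 5.73. The other 6 mu-class genes, enzymes that conjugate a broad range of electrophiles, lay between -0.016 and 0.082. The brightest of them, Gstm5, differed by 0.046 ± 0.058 (adjusted p = 0.700) and Gstm1 by 0.082 ± 0.048 (adjusted p = 0.356). Gstm2, Gstm3, Gstm4 and Gstm6 had means below the array median. Mu-class genes are close copies of one another and stand side by side on chromosome 3, so signal may be shared between their lines.

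In the alpha class, Gsta3 ran from 5.43 to 5.61 in controls (median 5.48) and from 5.51 to 5.70 in diabetic retinas (median 5.57). Its groups overlapped, the 2 highest values were those of diabetic 2 and diabetic 6, and the change was 0.10 ± 0.04 (adjusted p = 0.180), with a dim signal under 5.73. Diabetic 2 and diabetic 6 also had the 2 highest lens marker means (6.48 and 6.97), and with lens markers as a covariate the change was 0.077 (adjusted p = 0.246). Gsta4, which clears aldehydes of lipid peroxidation and is the brightest alpha-class line, differed by 0.039 ± 0.075 (95% interval -0.12 to 0.20; adjusted p = 0.812). Its highest value was that of diabetic 6 (8.54, against 8.01 to 8.31 in controls). Gsta2, at 5.10, was near the floor of the array.

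The remaining classes are single genes or small groups. Gsto1, an omega-class enzyme that also reduces dehydroascorbate, differed by 0.14 ± 0.08 (adjusted p = 0.369), Gstk1, a transferase of mitochondria and peroxisomes, by 0.10 ± 0.07 (adjusted p = 0.438), and Gstz1, which acts in tyrosine breakdown, by 0.099 ± 0.058 (adjusted p = 0.363). For these 3 genes the groups overlapped. The 4 theta-class genes lay between -0.024 and 0.072, with Gstt1 as the brightest line (-0.0080 ± 0.047; adjusted p = 0.945). The second omega-class gene, Gsto2, was dim, with a change of 0.0055.

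**Figure D3:**
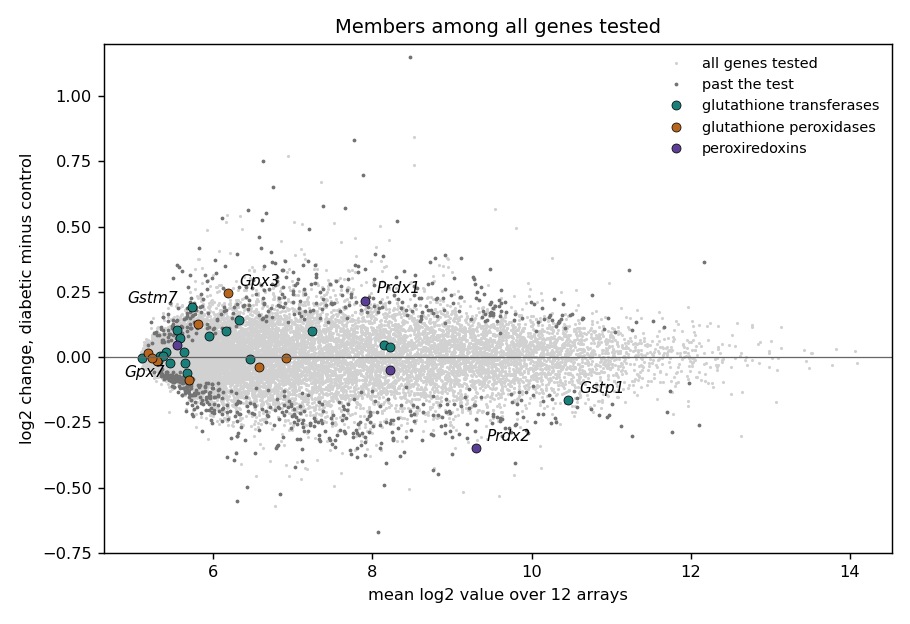
Mean log2 value over the 12 arrays against the log2 change, diabetic minus control, for all 24570 genes tested (grey; darker grey for genes past the limma test) and the 32 members by family. The spread of changes narrows toward the floor of the array, where 16 members lie, and no member lies outside the range of changes of the other genes.

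Glutathione peroxidases showed no change past the test, with 3 of 8 above 0 and 5 below, a median of -0.0035 and 2 members at an unadjusted p under 0.05. Gpx7, a peroxidase of the endoplasmic reticulum, ran from 5.68 to 5.81 in controls (median 5.72) and from 5.58 to 5.72 in diabetic retinas (median 5.65). The change was -0.089 ± 0.029 (adjusted p = 0.111), with overlapping groups and a mean of 5.70, below the array median. Gpx8, the related enzyme of the same compartment, differed by -0.037 ± 0.062 (adjusted p = 0.777).

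Gpx4 reduces lipid peroxides within membranes and guards cells against ferroptosis. It ran from 5.61 to 5.97 in controls (median 5.72) and from 5.81 to 6.04 in diabetic retinas (median 5.84). All diabetic arrays lay above the control mean, but control 2 (5.97) exceeded all of them except diabetic 2 (6.04), and the change was 0.13 ± 0.06 (adjusted p = 0.236). The line for this gene was only slightly above the array median.

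Gpx1, the widely expressed cytosolic peroxidase and the brightest line of its family, was nearly level between the groups. It ran from 6.83 to 6.99 in controls (median 6.89) and from 6.80 to 7.01 in diabetic retinas (median 6.91). The change was -0.0050 ± 0.042 (95% interval -0.096 to 0.086; adjusted p = 0.962), and its sign turned under cyclic loess normalization (0.0043). Gpx2 of the gut, Gpx5 of the epididymis and Gpx6 of the olfactory epithelium had means from 5.18 to 5.30, near the floor of the array.

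Gpx3, the secreted peroxidase of plasma, varied most between animals of all 32 members, with a pooled within-group SD of 0.35 beside a median of 0.082 over the members. It ran from 5.67 to 6.46 in controls (median 6.06) and from 5.79 to 6.78 in diabetic retinas (median 6.27). Controls and diabetic retinas overlapped over most of this range, and the change was 0.25 ± 0.19 (95% interval -0.16 to 0.65; adjusted p = 0.488). It was 0.15 without diabetic 6 (adjusted p = 0.695). The 2 highest arrays, diabetic 6 (6.78) and diabetic 2 (6.69), also had the 2 highest lens marker means, and the change was 0.13 with lens markers as a covariate (adjusted p = 0.689). After removal of group means, Gpx3 had a Pearson r of 0.63 with the lens marker mean over 12 arrays (permutation p = 0.0505, adjusted p = 0.101; Spearman rho 0.55, permutation p = 0.0977, adjusted p = 0.166). Without the 2 arrays farthest from the median of lens markers, r was 0.32, so the relation rests on those arrays. With the pigment epithelium marker mean, r was 0.51 (permutation p = 0.121, adjusted p = 0.121; rho 0.45, permutation p = 0.166, adjusted p = 0.166), and 0.66 without the 2 farthest arrays. Both relations were chosen after the values were seen, and neither passed.

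**Figure D4:**
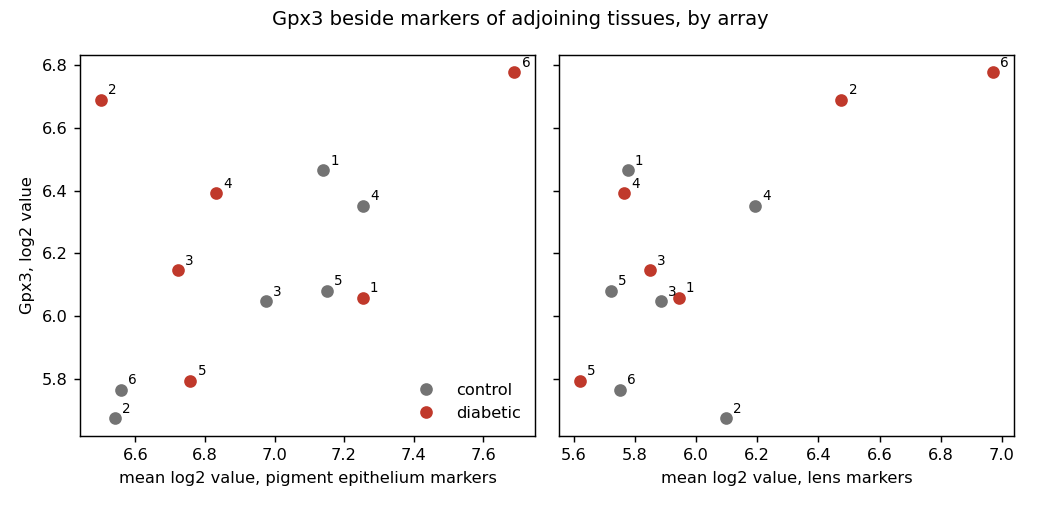
Log2 value of Gpx3 in each array against the mean log2 value of 11 pigment epithelium markers (left) and of 18 lens markers (right), with replicate numbers beside the points. Diabetic 6 is highest on all 3 measures, and diabetic 2 is second for Gpx3 and for lens markers.

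No pair of neighbouring members had a correlation that passed adjustment. Among the members, 11 pairs are next to each other in the order of coding genes on a chromosome (6 pairs of mu-class genes, 3 of theta-class genes, Gsto1 with Gsto2, and Gpx5 with Gpx6). Over 12 arrays with group means removed, the pair with the smallest permutation p was Gstm6 with Gstm3, with a Pearson r of -0.42 (permutation p = 0.0318, adjusted p = 0.349 over 11 pairs) and a Spearman rho of -0.63 (permutation p = 0.0146, adjusted p = 0.161). Without the 2 farthest arrays r was -0.54. Most of these genes are dim, which limits what such correlations can show.

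Many genes of these families are known targets of the transcription factor Nrf2, which binds the antioxidant response element. The core letters of this element, TGACNNNGC on either strand, were searched in promoter windows of RefSeq (GRCm38.p6) from 250 bases before to 50 bases after the gene start. They were found for 4 of the 30 members with an entry (13.3%), beside 14.0% of the 27025 genes in the table. Gsta4 and Gstt2 had no entry. The 4 stretches are shown because they hold the match, in capitals, with the bases around it that lie before the gene start, on the strand of the gene. The match begins 133 bases before the start in Prdx1 (chr4:116685426-116685514, plus strand, match on the opposite strand), 121 in Gsta3 (chr1:21240424-21240512, plus strand), 129 in 1 of the windows of Gstm7 (chr3:107931695-107931783, minus strand) and 42 in Gstm5 (chr3:107895772-107895853, plus strand).
Prdx1: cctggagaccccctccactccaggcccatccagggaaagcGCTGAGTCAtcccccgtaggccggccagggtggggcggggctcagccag
Gsta3: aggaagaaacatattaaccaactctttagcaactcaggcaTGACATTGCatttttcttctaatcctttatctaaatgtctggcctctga
Gstm7: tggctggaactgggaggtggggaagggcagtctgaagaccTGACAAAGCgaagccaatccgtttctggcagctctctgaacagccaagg
Gstm5: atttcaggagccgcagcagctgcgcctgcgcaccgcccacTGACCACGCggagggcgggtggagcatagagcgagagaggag
The changes of these 4 genes were 0.22 for Prdx1, 0.10 for Gsta3, 0.19 for Gstm7 and 0.046 for Gstm5, none of them past the test. Of all 32 members, 18 had a change above 0, and whether a match goes with the sign was not tested. The other 26 members with an entry held no match. A match is a description of the letters and does not show binding.

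Genes that supply or share these pathways were examined through 6 lists of 74 measured genes. Only Glrx2 passed the limma test over all genes, 1.35% of the 74 beside 3.24% of all genes. Glrx2, a mitochondrial glutaredoxin that uses glutathione to reduce protein disulfides, ran from 8.55 to 8.78 in controls (median 8.61) and from 8.15 to 8.46 in diabetic retinas (median 8.39). The groups did not overlap, as for 2 of the 74 genes (2.70%, beside 2.84% of all genes), and Glrx2 fell by 0.28 ± 0.05 on the log2 scale (1.21-fold lower; adjusted p = 0.0200). It passed in all 21 alternative fits (adjusted p from 0.0106 to 0.0476). At an unadjusted p under 0.05 there were 20 of the 74 genes, 10 higher and 10 lower, which is 27.0%, beside 21.0% of all genes and 27.7% of the genes at or above the array median, where 55 of the 74 lie.

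By list, glutathione synthesis, recycling and breakdown held 1 gene past the test of 19 (median change 0.0018) and each of the other lists 0. In the list of selenoprotein synthesis and other selenoproteins (18 genes, median -0.036), which includes the machinery that glutathione peroxidases with selenocysteine need, Pstk, the kinase that prepares the selenocysteine tRNA, had the smallest p (-0.25 ± 0.07; adjusted p = 0.0778). In the thioredoxin list (9 genes, median 0.043), which restores peroxiredoxins, this was Txnip, an inhibitor of thioredoxin (0.20 ± 0.08; adjusted p = 0.171). In the list of membrane-bound and other glutathione transferases (12 genes, median 0.043) it was Clic1, an intracellular channel protein with a transferase fold (0.064 ± 0.019; adjusted p = 0.0863). The groups of Clic1 did not overlap, but only just: the highest control (5.67285) and the lowest diabetic array (5.67383) nearly met. Its mean of 5.67 lay below the array median. Among Nrf2, its sensor Keap1 and other classical targets (12 genes, median -0.034) the gene of smallest p was the carbonyl reductase gene Cbr1 (-0.17 ± 0.06; adjusted p = 0.126). Among the superoxide dismutases and catalase (4 genes, median -0.0014) it was the catalase gene Cat (-0.098 ± 0.064; adjusted p = 0.413).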

How the data were processed

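Expression was measured in whole retina of 12 mice, 6 per group, 1 array each. The deposited table held log2 values made by the authors with RMA, per the submitters' processing notes. The RMA version and the probe set definition are not given in the sources used here. Sorted values of the 12 arrays were identical. Each of 24973 lines is 1 Entrez gene number: 24015 were named by the platform annotation and 559 more by RefSeq (GRCm38.p6), 399 without a name were left out, and for 4 repeated symbols the line with the highest mean was kept.

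Diabetic minus control was tested with limma 3.58.1 (lmFit, eBayes, R 4.3.3), two-sided. P-values of the 24570 genes were adjusted together by the Benjamini-Hochberg method, with a threshold of 0.05 and no filter. Errors are SEs. Levels of different genes are not amounts that can be compared, since probes differ. The procedure was also run on simulated data with 200 changed genes. The power of the procedure for changes as small as those of the members is not given here. The number of arrays limits the precision.

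Values by array are given for members past the test, the 3 of smallest p per family and the brightest of each family; other genes are given by change, range or count. Members, lists, this rule and the alternatives were chosen with earlier results of these data known. Correlations used 100000 permutations within groups. Protein identity between members was not computed.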

Additional observations from a re-analysis of the deposited data

Results flagged for a closer look

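Among 64 groups of 6 arrays (32 members in each group), 4 (6.25%) held an array whose gap to its nearest neighbour took so much of the group's range that Dixon's test at the 95% level singles it out, and chance alone does this in about 1 of 20 groups. In diabetic retinas, Prdx2 was low in diabetic 2 (8.86 against 9.12 to 9.23, ratio 0.709). Prdx3 was high in diabetic 6 (8.49 against 8.09 to 8.20, ratio 0.729), the array with the highest lens and pigment epithelium markers, whose part in this value was not tested. Gpx4 was high in diabetic 2 (6.04 against 5.81 to 5.89, ratio 0.650). In controls, Gpx6 was high in control 1 (5.34 against 5.29 to 5.31, ratio 0.667), at a level near the floor of the array.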

How the results depend on the processing

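The count of 0 members became 1, Prdx2, with a mean-variance trend, with array weights and among genes at or above the array median. It ran from 0 to 1 without single arrays (1 without control 4 and without control 5) and was 2 at an adjusted p under 0.1 (Prdx2 and Gstp1). With symbols from RefSeq (34 genes) it stayed at 0. Over all genes, the count of 797 was 460 with lens markers as a covariate, 1967 at an adjusted p under 0.1, and 325 to 835 without single arrays, with a fall by more than 1.5 times without control 1, 2, 3 or 6 and without diabetic 1, 3, 4 or 6. The 1 support gene became 2 among genes at or above the array median and with pigment epithelium markers as a covariate (Pstk beside Glrx2), 3 at an adjusted p under 0.1, and ran from 1 to 3 without single arrays (3 without control 5, 2 without diabetic 5). Among genes at or above the array median, the median change was 0.082 for transferases and 0.062 for peroxidases, a set with fewer members. Without single arrays the median ran from -0.011 to 0.011 for peroxidases and from -0.037 to 0.022 for peroxiredoxins, so neither has a settled sign. The sign of Gpx1 turned with cyclic loess (0.0043) and without single arrays (-0.026 to 0.015); the other 9 genes described by array kept theirs. With the replicate number as a block, 506 genes, 0 members and 2 support genes (Selenon beside Glrx2) passed. Same-numbered arrays did not deviate together (correlations from -0.16 to 0.17, with 1 of 6 best with its own number). The labels do not say that the numbers pair the animals, and these correlations cannot exclude it. The 16 members that lie below the array median are too dim to bound a change in RNA.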

Other observations

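The log2 difference between the Prdx1 and Prdx2 lines within an array, chosen after the values were seen and given without a test, ran from -1.84 to -1.34 in controls (median -1.71) and from -1.72 to -0.90 in diabetic retinas (median -1.04). The array at -1.72 is diabetic 6, and the groups overlapped through it. Neither gene passed the test, and since probes differ, the value is not the ratio of the transcripts.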
